A study of Drosophila melanogaster with 5 samples.

Results

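Open chromatin inside the transcribed part of genes, away from annotated start sites, was examined in dopamine and GABA neurons of adult *Drosophila melanogaster* heads. The regions were all those of the authors' comparison table annotated as lying in an exon or in a 3′ UTR, whichever peak lists call them. There were 13062 such regions among 80590 in all. Of these, 10872 were exon regions (13.5% of all regions) and 2190 were 3′ UTR regions (2.72%). The annotation counted everything within 2 kb of a start site as promoter first. Every exon or 3′ UTR region therefore lay at least 2001 bp from the start that this annotation gives. By RefSeq starts, 3 exon regions and 3 of the 3′ UTR regions lay within 2 kb of the start of another gene.

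The ATAC-seq libraries came from nuclei labelled with nuclear GFP, 2 from dopamine neurons (the TH-Gal4 driver) and 3 from GABA neurons (the vGAT-Gal4 driver). Flies of both groups were reared at 25 °C, frozen and beheaded, and GFP-labelled nuclei were collected from whole heads by flow cytometry. Each library is therefore a mixture of all neurons in which its driver is active, and of any other nuclei that passed the gate. Age and sex of the flies, and whether the libraries of a group came from separate collections, were not given in the sources used here. The p-values therefore measure the spread between these libraries only.

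ATAC-seq uses the Tn5 transposase, which inserts sequencing adapters where DNA is not covered by nucleosomes, so reads pile up in accessible chromatin. Most accessible sites of the fly genome are promoters and enhancers, and enhancers lie mainly in introns and between genes. Exons carry coding sequence and are usually occupied by nucleosomes, but some contain enhancers or unannotated start sites. A 3′ UTR is the untranslated end of the messenger RNA, where microRNAs and RNA-binding proteins act. In fly neurons many genes use distant polyadenylation sites that lengthen the 3′ UTR, so a neuronal 3′ UTR can stretch over many kilobases of DNA.

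The peak lists held 69464 and 69940 peaks for the dopamine libraries and 84055, 81638 and 107219 for the GABA libraries, and GABA list 3 was the longest. The strongest peak of a dopamine list reached a fold enrichment of 8.49 or 11.2, and that of a GABA list 21.5, 19.9 or 16.0. The peak lists and the comparison table hold no read count per library, and the read totals listed in the study's supplement were not used here. The labels were checked on marker genes, by the percentile of the strongest peak within its own list. At ple (tyrosine hydroxylase, which makes the dopamine precursor) it was 99.95 and 99.97 in dopamine lists and 79.4, 75.9 and 85.2 in GABA lists. At VGAT, the vesicular GABA transporter, it was 72.2 and 77.3 in dopamine lists and 99.5, 99.8 and 99.4 in GABA lists. At DAT and Ddc, also dopaminergic markers, the groups overlapped. Vmat, another dopaminergic marker, went the other way, with 26.9 and no peak in dopamine lists and 54.1, 53.9 and 63.6 in GABA lists. Some markers of other cell types moved with the groups as well. Of 5 epidermal markers, 3 and 4 had a peak in dopamine lists (median percentile 94.9 and 90.7) and 4, 4 and 3 in GABA lists (41.3, 52.5 and 84.0). Of 3 cholinergic markers all had peaks in every list, at medians of 48.2 and 57.8 against 90.8, 94.0 and 95.6. At VGlut, the glutamatergic marker, the percentile was 75.3 and 81.6 against 99.6, 99.6 and 99.4. Of 7 photoreceptor markers, 4 had a peak in each dopamine list (median percentile 74.7 and 78.5) and 7 in each GABA list (63.9, 66.0 and 82.8). Rh4, Rh6 and trp had a peak in GABA lists only. At Rh5 the order was the reverse, with 99.90 and 99.97 in dopamine lists and 63.9, 66.0 and 82.9 in GABA lists. The part of such cells in the results below was not tested.

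Exon and 3′ UTR regions had a lower median signal for their width than all regions together. The median width was 161 bp for exon regions (range 74 to 3792 bp) and 164 bp for 3′ UTR regions (74 to 3318 bp). It was 175 bp over all regions, 151 bp in introns and 139 bp in distal intergenic regions. The median pooled signal, which is the authors' mean over all libraries of read counts divided by size factors, was 62.9 in exons, 75.0 in 3′ UTRs, 77.2 in introns and 93.2 in promoters. In distal intergenic regions it was 71.3, below the 3′ UTR value. Per 100 bp of width, the median signal was 38.3 in exons and 42.7 in 3′ UTRs, compared with 52.4 in introns and 51.1 in distal intergenic regions. It was 47.0 in promoters and 47.0 over all regions. In regions annotated to a 5′ UTR it was 40.3, below the 3′ UTR value. The median distance to the nearest start was 4071.5 bp for exon regions and 3723.5 bp for 3′ UTR regions. The X chromosome held 19.4% of exon regions and 21.7% of 3′ UTR regions, compared with 16.7% of all regions.

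Exon regions fell in 2927 genes, of which 838 held a single region. Within their transcripts, 6192 regions lay in inner exons, 2068 in the last exon, 1552 in the exon before it and 931 in the second exon. The 3′ UTR regions fell in 1188 genes or groups of overlapping genes, of which 755 held a single region. The gene of a 3′ UTR region was taken from the RefSeq span that contains it. For 290 regions more than 1 coding gene overlapped, and the region then cannot be assigned to a single gene. For 27.4% of 3′ UTR regions and 44.3% of exon regions, the nearest start site belonged to the gene that contains the region. The other regions were nearest to the start of another gene or could not be assigned to a single gene.

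The first question was how often each library called these regions. A region counted as called in a list when at least 1 bp of it overlapped a peak. Exon regions were called rarely in dopamine lists, at 14.0% and 8.94%, and more often in GABA lists, at 34.4%, 30.9% and 61.5%. For 3′ UTR regions the shares were 27.9% and 25.8% in dopamine lists and 39.7%, 39.5% and 54.7% in GABA lists. In both classes every GABA list was above both dopamine lists, and GABA list 3 stood well above the other GABA lists in exons.

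**Figure D1:**
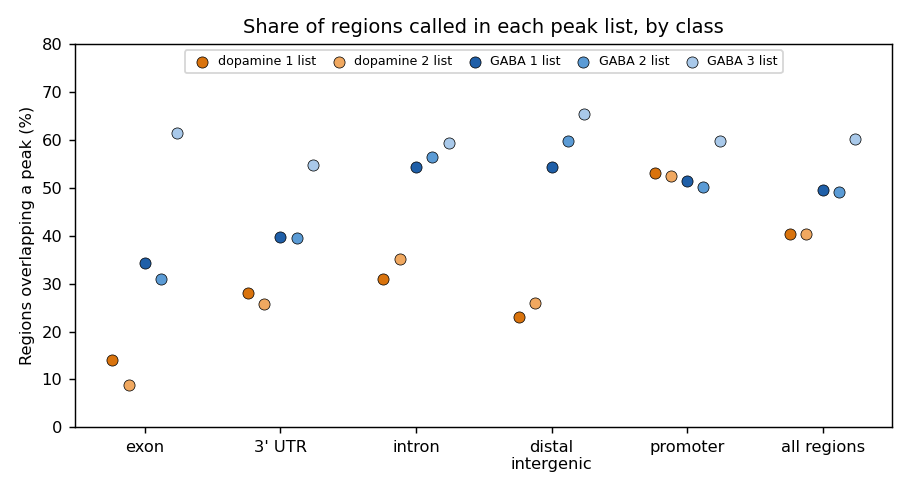
Share of regions that overlap a peak (vertical axis, percent) in each class of region, with a point for each of the 5 peak lists. Exon regions have the lowest dopamine shares (14.0% and 8.94%), promoters have similar shares in all lists, and GABA list 3 calls 61.5% of exon regions.

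The mean share of exon regions was 11.5% ± 3.58 (SD, n = 2) in dopamine lists and 42.3% ± 16.7 (SD, n = 3) in GABA lists. This is a difference of -30.8 percentage points (two-sided exact permutation test, p = 0.2, which is the lowest value possible with 2 and 3 libraries). For 3′ UTRs the means were 26.9% ± 1.52 (SD, n = 2) and 44.7% ± 8.73 (SD, n = 3), a difference of -17.8 points (exact permutation p = 0.2). Over all regions the same difference was -12.6 points, and over promoters it was -0.984 points (exact permutation p = 1). Introns (31.0% and 35.1% against 54.2%, 56.4% and 59.4%) and distal intergenic regions (23.0% and 26% against 54.4%, 59.8% and 65.3%) showed the same order as exons. Without GABA list 3, the difference was -21.2 points in exons and -12.8 points in 3′ UTRs. With the same number of peaks taken from each list, it was -18.4 points in exons and -7.72 points in 3′ UTRs.

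Within each list, exon regions were called less often than all other regions in 4 of 5 lists. The differences were -30.6 and -36.3 points in dopamine lists and -17.5, -21.1 and +1.48 points in GABA lists, where GABA list 3 was the exception. Their mean was -20.8 points (exact sign-flip permutation test over the 5 libraries, two-sided, p = 0.125). Without GABA list 3 the mean was -26.4 points. The sign of GABA list 3 turned with equal numbers of peaks (-5.35 points) and with peaks of −log10 q of at least 5 (-5.83 points), so that 5 of 5 lists were below the rest (exact sign-flip p = 0.063 in both cases). The 3′ UTR regions were below the rest in 5 of 5 lists, with differences of -12.9 and -15.0 points in dopamine lists and of -10.1, -9.92 and -5.59 points in GABA lists. The mean was -10.7 points (exact sign-flip p = 0.063, the smallest p that 5 libraries allow).

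When the classes were set side by side, 3′ UTR regions were called more often than exon regions in 4 lists and less often in GABA list 3. The 3′ UTR minus exon differences were 13.9 and 16.9 points in dopamine lists and 5.33, 8.61 and -6.71 points in GABA lists (mean 7.61, exact sign-flip p = 0.1875). With regions weighted to the same widths, they were 12.8, 15.9, 3.77, 7.24 and -7.93 points (mean 6.37, exact sign-flip p = 0.25). This difference between the classes was not larger than the spread between libraries. Introns of the same widths were above 3′ UTRs in all 5 lists, by a mean of 12.8 points (exact sign-flip p = 0.063).

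The share of called regions rose with width in every list. Among exon regions of 74 to 100 bp, 3.48% and 2.05% were called in dopamine lists and 11.1%, 10.6% and 39.8% in GABA lists. Among exon regions over 500 bp wide, the shares were 45.9% and 32.0% in dopamine lists and 76.6%, 69.9% and 91.4% in GABA lists. Narrow 3′ UTR regions of 74 to 100 bp were called about as often by both types (15.1% and 16.4% against 14.9%, 17.3% and 24.1%). Those over 500 bp were called in 55.8% and 48.5% of cases in dopamine lists and in 80.4%, 75.4% and 91.9% in GABA lists. The dopamine and GABA lists thus lay apart at every width in exons, but only above 100 bp in 3′ UTRs.

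**Figure D2:**
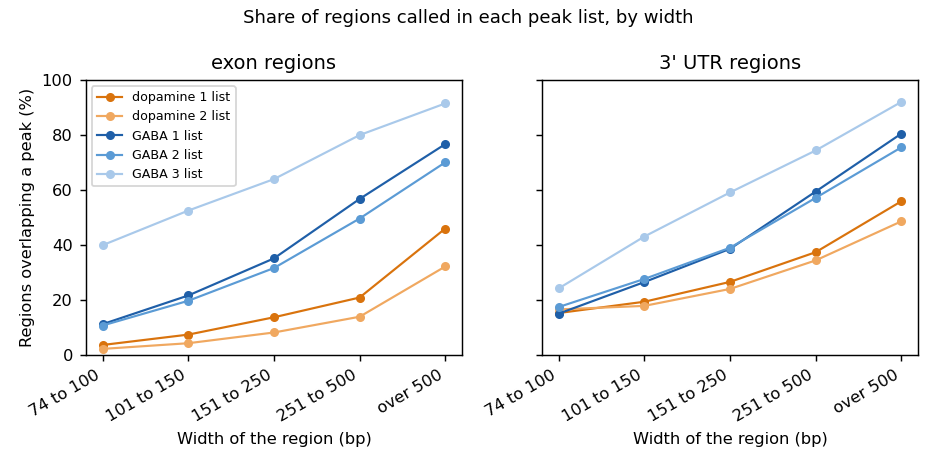
Share of regions that overlap a peak (vertical axis, percent) by width of the region (horizontal axis, bp), with a line for each of the 5 peak lists, for exon regions (left) and 3′ UTR regions (right). In exons GABA list 3 calls 39.8% of the narrowest regions, compared with at most 11.1% in the other lists.

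With distance from the start site, the lists moved in opposite directions. Among exon regions 2 to 3 kb from a start, 17.0% and 10.9% were called in dopamine lists and 24.5%, 20.8% and 50.9% in GABA lists. More than 10 kb away, the dopamine shares were 8.85% and 6.82% and the GABA shares were 49.7%, 49.5% and 74.1%. In 3′ UTRs the dopamine shares went from 33.9% and 29.2% at 2 to 3 kb to 15.7% and 16.1% beyond 10 kb. The GABA shares went from 29.9%, 29.3% and 43.4% to 55.2%, 58.3% and 72.2%. At 2 to 3 kb the dopamine and GABA lists overlapped in 3′ UTRs, and beyond 10 kb they were far apart. Introns showed the same directions, from 41.2% and 45.8% to 21.8% and 25.6% in dopamine lists and from 43.6%, 45.2% and 48.4% to 61.0%, 63.7% and 67.8% in GABA lists.

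Where they were called, these regions overlapped weak peaks. Peak strength was expressed as the percentile of the strongest overlapping peak within its own list, by fold enrichment. The median percentile of called exon regions was 21.5 and 22.3 in dopamine lists and 37.9, 32.5 and 49.8 in GABA lists, compared with 59.8, 62.6, 60.6, 60.6 and 63.9 for all other called regions. Exon regions were weaker in 5 of 5 lists, by a mean of -28.7 percentile points (exact sign-flip p = 0.063). The 3′ UTR medians were 40.7 and 37.4 in dopamine lists and 44.1, 41.4 and 53.9 in GABA lists, again below the rest in 5 of 5 lists (mean -16.6 points, exact sign-flip p = 0.063). Between 94.6% and 98.9% of the called regions contained a peak summit.

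Most exon and 3′ UTR regions were not shared by all libraries. No list called 3341 exon regions (30.7%) and 560 3′ UTR regions (25.6%), compared with 19.5% of all regions. All 5 lists called 317 exon regions (2.92%) and 169 3′ UTR regions (7.72%), compared with 20.6% of all regions. GABA list 3 alone called 2190 exon regions (20.1%) and 232 3′ UTR regions (10.6%), compared with 9.01% of all regions. Peaks in both dopamine lists, with none in a GABA list, overlapped 172 exon regions (1.58%) and 173 3′ UTR regions (7.90%), compared with 8.42% of all regions. All 3 GABA lists and no dopamine list called 1764 exon regions (16.2%) and 381 3′ UTR regions (17.4%), compared with 13.2% of all regions. In introns the GABA-only share was higher, at 22.0%, as it was in distal intergenic regions, at 25.3%. Exons and 3′ UTRs thus held nearly the same number of dopamine-only regions, although there were far fewer 3′ UTR regions. Leaving out a list can only raise such counts, since fewer lists must then meet the condition. Without dopamine list 2, 398 exon regions were called in dopamine only and 621 in all remaining lists. Without dopamine list 1 the counts were 257 and 435.

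The shared regions were the wide ones. The median width of exon regions called in all 5 lists was 567 bp, compared with 119 bp for those in no list, and in 3′ UTRs it was 448 bp compared with 112 bp. Pooled signal followed, at a median of 265 and 48.0 for exon regions and 255 and 50.8 for 3′ UTR regions. Per 100 bp the medians were much closer, at 47.5 and 38.6 in exons and 54.5 and 42.0 in 3′ UTRs.

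The shared exon regions with the highest pooled signal lay in bin3, lncRNA:CR45585, dsd and AdamTS-B. Pooled signal is not divided by width, and the dsd region was 3792 bp wide with 59.0 per 100 bp. The bin3 region (2R, 6234724 to 6236324, exon 3 of 7) had a pooled signal of 3158. The gene encodes an RNA methyltransferase. Its fold enrichments were 5.86 and 8.42 in dopamine lists and 11.6, 10.7 and 9.06 in GABA lists. The range of fold enrichment differed between lists. As a percentile within its own list, the peak stood at 98.5 and 99.35 in dopamine lists and at 99.52, 99.36 and 99.74 in GABA lists. It was thus near the top of every list. The lncRNA:CR45585 region (3R, 5021079 to 5022192, exon 2 of 2) had 4.51 and 7.17 against 9.93, 9.87 and 7.64. Its percentiles were 90.7 and 97.0 against 99.0, 99.0 and 99.3. The regions of dsd (3R, 27600332 to 27604123, exon 2 of 8) and of AdamTS-B (X, 5705556 to 5706663, exon 7 of 12), a secreted metalloprotease, were higher in dopamine lists. For dsd the values were 5.94 and 6.94 against 3.81, 3.33 and 3.38. For AdamTS-B they were 6.54 and 8.53 against 4.64, 4.27 and 3.22.

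Among shared 3′ UTR regions, the highest pooled signal (4787) was that of gukh (3R, 19016420 to 19019737), whose protein binds the synaptic scaffold Dlg. Fold enrichment there was 4.21 and 6.26 in dopamine lists and 8.91, 8.26 and 5.87 in GABA lists, and the groups overlapped. The percentiles within each list, 87.4 and 93.0 against 98.3, 97.8 and 97.8, did not overlap. Next came Atg13 (pooled signal 2023), a subunit of the kinase complex that starts autophagy, and Glut4EF (1780), a transcription factor whose span overlaps that of CG46467. In tara (3R, 16256774 to 16259662, pooled signal 1547), a regulator of the cell cycle and of sleep, enrichment was modest, at 2.63 and 3.07 against 2.09, 1.55 and 2.23. The tara region was 2889 bp wide and had 53.6 per 100 bp, compared with a median of 54.5 in shared 3′ UTR regions.

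The dopamine-only regions in exons were spread over 126 genes. The highest strength percentile was that of a 115 bp region of cact (2L, 16314779 to 16314893, exon 5 of 7), with fold enrichments of 6.54 and 7.40. Cact is the fly IκB protein that holds NF-κB factors in the cytoplasm. Pooled signal in this region was 46.2, compared with a median of 97.4 over dopamine-only exon regions. A narrow region can take its strength from a peak that extends beyond it. Next were Cad96Ca (3R, 25204796 to 25205097), a receptor tyrosine kinase, with 5.63 and 6.60, and CG3164 (2L, 125834 to 126232) with 5.26 and 6.83. Then came eas (X, 16281205 to 16281889), the ethanolamine kinase, with 5.03 and 5.92. All 4 were at or above the 90.9th percentile of the dopamine lists and had no peak in any GABA list.

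The locus with most dopamine-only exon regions was lncRNA:CR43650 on 2R, which RefSeq also lists as pri-mir-8, the precursor transcript of the microRNA miR-8. It was singled out after its values were seen. It held 9 regions, of which 7 were called in both dopamine lists, 6 of them in no GABA list. These are counts of regions, not of separate open sites, since neighbours can share a peak. The regions starting at 16833845, 16834212, 16834553 and 16834785 all had 5.92 in dopamine list 2. In that list the region starting at 16836620 had the same 8.08 as the widest region. Over all exon regions, 1.58% were dopamine only. Regions of single-exon transcripts were the exon group called most in dopamine lists, with 31.5% and 36.0% of 89 regions, and all 9 regions of this locus belong to them. At the widest of them (16836967 to 16837639) fold enrichment was 6.91 and 8.08 in dopamine lists and 2.18, 2.43 and 2.24 in GABA lists.

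Dopamine-only 3′ UTR regions lay in 133 genes, and the strongest 4 were 3 regions of corto and 1 of CG12581. The corto gene encodes a chromatin protein that binds Polycomb and trithorax group complexes. Of its 11 3′ UTR regions on 3R, 10 were called in at least 1 dopamine list and 3 in at least 1 GABA list. At 5081169 to 5081268 and 5081322 to 5081511 the fold enrichments were 6.09 and 8.99, and neither had a GABA peak. The same values hold for the wide region beside them (5081594 to 5082261, pooled signal 1230), where GABA lists had 3.12, 3.65 and 2.73. Narrow regions that share a broad peak thus take the strength of its highest summit. The CG12581 region (3R, 4184854 to 4184953) had 6.01 and 7.74.

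The 3′ UTR of Lsd-2 on X, singled out after its values were seen, repeated the pattern of corto. Lsd-2 encodes a perilipin on lipid droplets. Of its 9 regions, 8 were called in at least 1 dopamine list, 5 in dopamine lists only, and 3 in at least 1 GABA list. Glut4EF also had 9 regions, all called in at least 1 dopamine list, 5 of them in dopamine lists only. These 3 genes shared the highest number of dopamine-only 3′ UTR regions. Here too, neighbouring regions can overlap the same peak, so the counts are of regions. Over all 3′ UTR regions, 7.90% were dopamine only.

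GABA-only regions were far more widespread in exons, with 1764 regions in 949 genes, of which 531 held a single such region. The strongest lay in CG34357 (3R, 4537891 to 4538382), with fold enrichments of 5.36, 6.23 and 3.64 in the 3 GABA lists. A 112 bp region of axo (3L, 4664080 to 4664191), which encodes a neurexin-related protein, had 5.64, 4.54 and 3.87. Its pooled signal was 48.7, compared with a median of 97.0 over GABA-only exon regions. CG13579 (2R, 24486669 to 24487253) had 4.57, 4.80 and 4.14, and Vha44 (2R, 16329720 to 16330398), a subunit of the vacuolar proton pump, had 4.68, 3.61 and 4.98. Their mean percentiles were between 87.4 and 91.8.

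In 3′ UTRs the strongest GABA-only regions were those of wry, CG43689, Dpp10 and Nckx30C. The wry region (2L, 1856483 to 1856894), in a gene for a Notch ligand, had fold enrichments of 5.03, 4.30 and 4.08. At CG43689 (X, 4090032 to 4090691) the values were 4.07, 14.3 and 3.07, so GABA list 2 stood apart. Dpp10 (2L, 6569919 to 6569995) had 4.96, 4.01 and 4.17, and Nckx30C (2L, 9717364 to 9718073), a sodium, calcium and potassium exchanger, had 3.96, 4.59 and 3.78.

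Long genes held the most regions. In exons these were dpy (91 regions), a giant extracellular protein, shot (51), a spectraplakin that links actin to microtubules, Msp300 (38), a nesprin, and Cdep and hiw (31 each). Hiw is a ubiquitin ligase that limits synapse growth. Of the 91 dpy regions, 11 and 1 were called in dopamine lists and 11, 22 and 44 in GABA lists. In shot the counts were 7 and 10 against 17, 11 and 30, in Msp300 3 and 0 against 12, 15 and 25, and in hiw 1 and 2 against 9, 8 and 16. In Cdep they were 2 and 2 against 15, 18 and 22, and 13 of its regions were GABA only. Over all exon regions, 14.0% and 8.94% were called in dopamine lists and 34.4%, 30.9% and 61.5% in GABA lists. Of all exon regions, 16.2% were GABA only.

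In 3′ UTRs the genes with most regions were sif with CG46320 (21), rg with CG15465 (18), Lar with CG46244 (15) and CG45263 (14). Overlapping genes could not be separated, and the first name of each pair is used below. Sif is a Rac activator at synapses, rg is a neurobeachin that anchors protein kinase A, and Lar is a receptor tyrosine phosphatase of axon guidance. In rg the dopamine lists called 0 of 18 regions and the GABA lists 16, 11 and 16. In CG45263 the dopamine lists called 0 of 14 regions and the GABA lists 10, 8 and 13. In sif the counts were 3 and 2 against 12, 12 and 17, and in Lar 1 and 2 against 8, 8 and 11. Over all 3′ UTR regions, 27.9% and 25.8% were called in dopamine lists and 39.7%, 39.5% and 54.7% in GABA lists. The strongest rg region (X, 5233452 to 5233684) had fold enrichments of 3.89, 3.27 and 3.70.

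**Figure D3:**
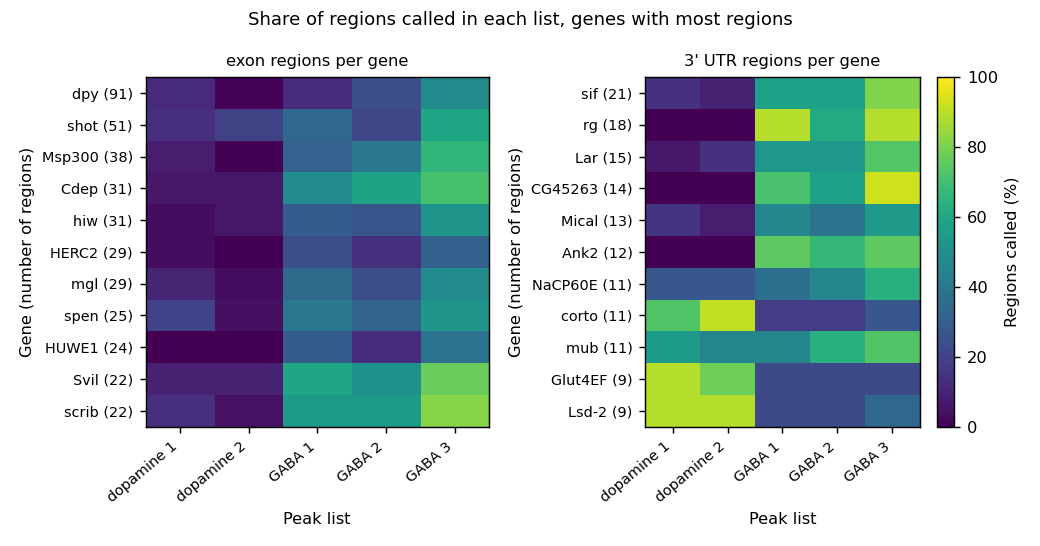
Share of a gene's regions that overlap a peak (colour, percent) in each of the 5 peak lists (horizontal axis), for the genes with most exon regions (left) and 3′ UTR regions (right), with the number of regions in parentheses. Rows sif, rg, Lar and Glut4EF also hold CG46320, CG15465, CG46244 and CG46467, and row Ank2 also holds CG32373 and CG44195. In 3′ UTRs, rows rg, CG45263 and Ank2 have 0 regions in dopamine lists, whereas corto, Glut4EF and Lsd-2 have most of theirs there.

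Neuronal gene lists were then examined for both classes. Of 196 exon regions in 24 genes of homophilic adhesion and wiring, 6.63% and 5.10% were called in dopamine lists and 56.6%, 58.2% and 77.0% in GABA lists. In this list 73 regions (37.2%, compared with 16.2% of all exon regions) were GABA only, in 20 genes, and 0 were dopamine only. The teneurin Ten-a, a synaptic partner-matching protein, had 13 such regions, and its relative Ten-m had 5. Among the Dscam cell recognition molecules, Dscam3 had 10, Dscam4 had 7 and Dscam2 had 5. The axon guidance receptor robo3 had 6, Toll-6 had 4, and CadN2, Fas2 and robo2 had 3 each. CadN, Fas3, Nrg and Nrx-1 had 2 each, and Con, Nlg2, caps, dpr1, fra and sli had 1 each. Neighbouring regions can overlap the same peak, and the 4 of Toll-6 all had a fold enrichment of 3.72 in GABA list 3. The counts here and in the lists below are therefore of regions, not of separate open sites. Of the 22 3′ UTR regions of this list, 5 (22.7%, compared with 17.4%) were GABA only (dpr1 with CG13442, Dscam2, Toll-7, robo1 and sli) and 0 were dopamine only.

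Ion channel genes held 73 exon regions, called in 4.11% and 5.48% in dopamine lists and in 61.6%, 53.4% and 80.8% in GABA lists. Of these, 26 (35.6%, compared with 16.2% of all exon regions) were GABA only and 0 dopamine only (compared with 1.58%). The calcium channel Ca-alpha1T had 7 GABA-only regions, and the potassium channels Shab, eag, Elk and SK had 5, 4, 3 and 3. Ih, the hyperpolarization-activated channel, had 2, and Sh and slo had 1 each. In 3′ UTRs, 6 of 27 regions (22.2%, compared with 17.4% of all 3′ UTR regions) were GABA only, in para (2), NaCP60E (2), Ca-alpha1D and SK (1 each), and 1 (3.70%, compared with 7.90%) was dopamine only, in NaCP60E.

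The sodium channel gene NaCP60E had 11 3′ UTR regions on 2R that differed among themselves. At 24910343 to 24910739 the GABA lists had fold enrichments of 3.79, 4.85 and 3.42, and the dopamine lists had no peak. At 24918791 to 24918899 the dopamine lists had 2.40 and 2.50, and the GABA lists had no peak. At 24917166 to 24918429 all lists had a peak, with 3.76 and 4.89 against 4.57, 3.36 and 3.14, and the groups overlapped.

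Synapse and active zone genes held 58 exon regions, called in 5.17% and 5.17% in dopamine lists and in 56.9%, 46.6% and 70.7% in GABA lists. GABA-only regions numbered 21 (36.2%, compared with 16.2% of all exon regions), with 9 in the active zone gene Rim, 7 in the microtubule-associated futsch, 2 in brp, 2 in Sap47 and 1 in Syn, while 0 were dopamine only. Of 29 3′ UTR regions, 8 (27.6%, compared with 17.4%) were GABA only, in Syt1 (3), the calcium sensor of vesicle fusion, cpx (2), Sap47, Syn and dlg1 (1 each), and 2 (6.90%, compared with 7.90%) were dopamine only, in Sap47 and brp.

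Neuronal transcription factor genes held 79 exon regions, called in 22.8% and 13.9% in dopamine lists and in 50.6%, 46.8% and 92.4% in GABA lists. Of these, 19 (24.1%, compared with 16.2% of all exon regions) were GABA only, with 3 each in chinmo and sr, 2 each in Hr38, br and mamo, and 1 each in Antp, EcR, Eip93F, cas, dac, hb and pros. Dopamine-only exon regions numbered 2 (2.53%, compared with 1.58%). They lay in Lim1 (X, 8768809 to 8768919, fold enrichments 3.08 and 3.41) and mamo (X, 13901482 to 13901619, fold enrichments 3.31 and 3.07). In 3′ UTRs, 8 of 26 (30.8%, compared with 17.4%) were GABA only, in br with Mur2B (4), pros (2), Dll and chinmo (1 each), and 2 (7.69%, compared with 7.90%) were dopamine only, in EcR and otp.

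Genes known for long neuronal 3′ UTRs held 15 3′ UTR regions, called in 26.7% and 33.3% in dopamine lists and in 46.7%, 53.3% and 46.7% in GABA lists. GABA-only regions (26.7%, compared with 17.4%) lay in Adar with prage, brat, nej and pum (1 each), and dopamine-only regions (13.3%, compared with 7.90%) in AGO1 and pum (1 each). In nej, the fly CBP acetyltransferase, the 3′ UTR region (X, 9669610 to 9670544) had GABA fold enrichments of 4.25, 3.07 and 2.93. Their 37 exon regions included 10 GABA-only regions (27.0%, compared with 16.2% of all exon regions), in pum (4), nej (3), brat (2) and shep (1), and 1 dopamine-only region (2.70%, compared with 1.58%), in nej. A list from another tissue, muscle sarcomere genes, held 84 exon regions, called in 5.95% and 0% in dopamine lists and in 17.9%, 27.4% and 58.3% in GABA lists. Of these, 10 were GABA only (11.9%, compared with 16.2% of all exon regions), 8 of them in Msp300 and 2 in Tm1, and 0 were dopamine only. The 9 early and housekeeping genes held 0 exon regions and 1 3′ UTR region, in alphaTub84B.

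The strength of peaks was compared between neuron types in the regions called in all 5 lists. limma was fitted to quantile-normalized log2 fold enrichment over all 16601 such regions, with Benjamini-Hochberg adjusted p under 0.05. Of the 317 exon regions, 43 (13.6%) were stronger in dopamine lists and 110 (34.7%) in GABA lists, compared with 24.9% and 27.1% of all tested regions. Of the 169 3′ UTR regions, 36 (21.3%) were stronger in dopamine lists and 48 (28.4%) in GABA lists. Promoters made up 13125 of all tested regions, with 26.5% stronger in dopamine lists and 22.1% in GABA lists. In introns the shares were 20.4% and 45.8%, and in distal intergenic regions 15.8% and 58.8%. The median log2 difference (dopamine minus GABA) was -0.24 in exons and -0.07 in 3′ UTRs, compared with -0.02 over all tested regions. It was -0.32 in introns and -0.57 in distal intergenic regions, so a lean to GABA was not particular to exons. These regions passed the requirement of a peak in every list, so the test says nothing of the much larger number called in only some lists. Without normalization the split was 34 against 54 in exons and 31 against 21 in 3′ UTRs, where the majority then lay on the dopamine side.

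**Figure D4:**
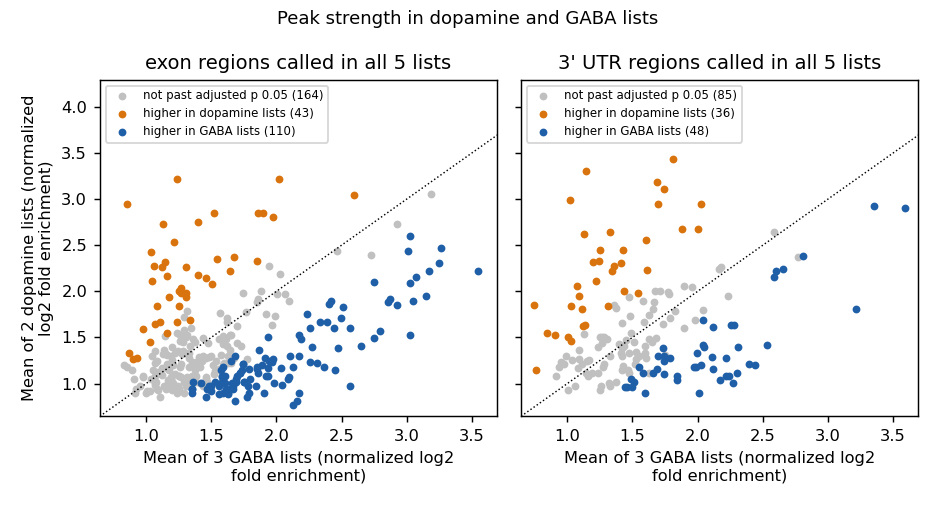
Mean normalized log2 fold enrichment in the 2 dopamine lists (vertical axis) against the 3 GABA lists (horizontal axis), with a point for each exon region (left) or 3′ UTR region (right) called in all 5 lists and a dotted line of equality. Coloured points passed limma at an adjusted p under 0.05 (43 and 110 in exons, 36 and 48 in 3′ UTRs).

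The largest difference towards dopamine among exons was that of rgr (2R, 8607889 to 8608538, exon 2 of 5). Its fold enrichments were 5.79 and 7.74 in dopamine lists and 1.95, 1.64 and 1.57 in GABA lists, a log2 difference of 2.10 (SE 0.13, limma adjusted p = 1.48e-05). The lncRNA:CR43650 region described above followed (log2 difference 1.98, SE 0.15). CG15822 (3L, 2157460 to 2158011, exon 7 of 10) came next with 1.60 (SE 0.15), from 5.18 and 7.17 against 1.90, 2.11 and 2.28.

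Towards GABA, the CRMP region (3R, 5576105 to 5576433, exon 9 of 13) had 1.95 and 2.28 in dopamine lists and 6.37, 6.58 and 5.47 in GABA lists. Its log2 difference was -1.59 (SE 0.13, limma adjusted p = 2.03e-05). CRMP encodes the fly relative of the collapsin response mediators of growing axons. Dap160, the fly intersectin that organizes endocytosis at synapses, had 1.80 and 1.93 against 4.67, 4.97 and 3.47 in its last exon (2L, 21134779 to 21135204), a log2 difference of -1.36 (SE 0.13). Between them stood a ribosomal RNA pseudogene, 28SrRNA-Psi:CR45859 on X (-1.50, SE 0.23). Its value is uncertain, since reads of near-identical copies may map there, which was not tested.

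Among 3′ UTRs the largest difference towards dopamine was in Atg13 (3R, 8352809 to 8353849). Its fold enrichments were 6.91 and 8.65 against 2.48, 1.89 and 2.05, a log2 difference of 2.16 (SE 0.14, limma adjusted p = 1.48e-05). A second CG12581 region (3R, 4183756 to 4184335) had 6.01 and 7.74 against 1.69, 1.70 and 2.38, a log2 difference of 1.97 (SE 0.18). In Glut4EF (3R, 9954527 to 9955631) the values were 7.06 and 9.33 against 3.65, 3.21 and 3.34, a log2 difference of 1.62 (SE 0.14).

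Towards GABA, Vrp1 (2R, 22108340 to 22110022), the fly WIP protein of actin assembly, had 3.16 and 4.21 against 12.7, 11.8 and 8.33, a log2 difference of -1.42 (SE 0.13, limma adjusted p = 2.94e-05). A second Dpp10 region (2L, 6569570 to 6569833) had 1.88 and 2.50 against 5.32, 4.64 and 4.48 (-1.26, SE 0.15). The RNA-binding gene mub (3L, 21931772 to 21932057) had 2.10 and 2.84 against 6.14, 5.87 and 4.68 (-1.24, SE 0.13). The regions named here were chosen among those whose normalized dopamine and GABA values did not overlap. This held for 183 of 317 exon regions and 106 of 169 3′ UTR regions, compared with 68.4% of all tested regions.

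**Figure D5:**
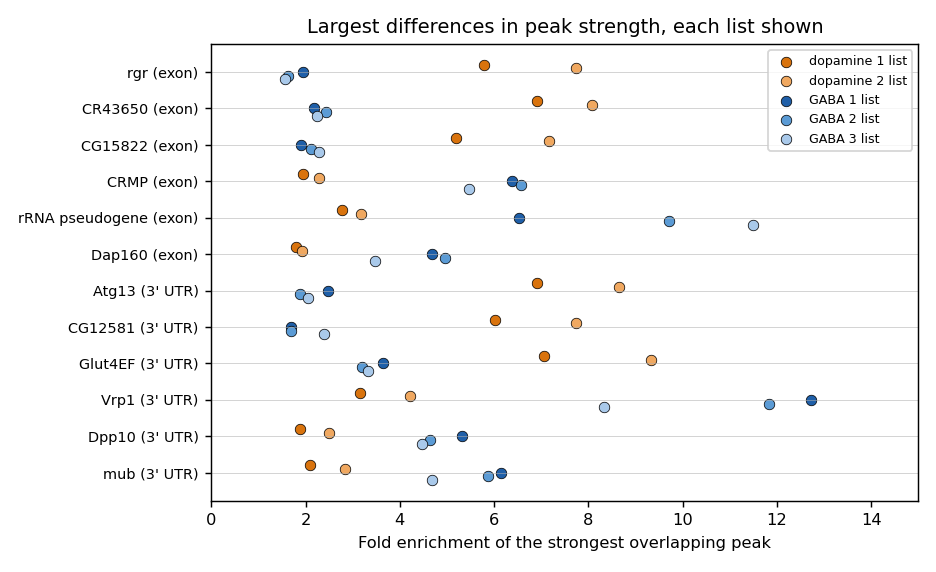
Fold enrichment of the strongest overlapping peak (horizontal axis) in each of the 5 lists for the exon and 3′ UTR regions with the largest limma differences in each direction. The regions were chosen among those whose values do not overlap, and Vrp1 has 3.16 and 4.21 against 12.7, 11.8 and 8.33.

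The gene lists held few regions that could be tested. Of the 5 tested exon regions in wiring genes, 4 were stronger in GABA lists and 0 in dopamine lists, compared with 34.7% and 13.6% of all tested exon regions. In Dscam1, whose exons are spliced alternatively into very many isoforms, a region at exon 6 of 24 (2R, 7352137 to 7353115) had fold enrichments of 4.06 and 5.46 in dopamine lists and 12.7, 11.7 and 7.50 in GABA lists. Its log2 difference was -0.95 (SE 0.13, limma adjusted p = 0.000217). The other Dscam1 exon regions had a peak in 1 dopamine list at most. CadN (N-cadherin) had a log2 difference of -1.25, and Dscam2 and Dscam4 had -0.87 and -0.86. A Dscam2 3′ UTR region also passed, at -0.54. Both tested exon regions of channel genes, in the potassium channels Shab (-0.70) and Shal (-0.52), were stronger in GABA lists. Of 2 tested exon regions in genes with long 3′ UTRs, both in AGO1, 1 was stronger in GABA lists (-1.01).

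Both tested brp regions, in a gene for the core scaffold of the active zone, were stronger in GABA lists (log2 difference -1.04 and -0.87). A region at exon 11 of 13 of Syn, the vesicle protein synapsin, was stronger in dopamine lists, with 4.36 and 5.01 against 3.0, 2.59 and 3.35 (log2 difference 0.58, SE 0.19, limma adjusted p = 0.0236). Among transcription factors, the LIM homeobox gene tup was stronger in dopamine lists (0.76) and the ecdysone-induced Eip93F in GABA lists (-0.69) in exons. In 3′ UTRs, otp (-0.69), pdm3 (-0.52), cpx (-0.64) and pum (-0.35) were stronger in GABA lists, and a NaCP60E region in dopamine lists (0.98). The alphaTub84B region had 4.51 and 5.12 against 4.70, 4.60 and 4.15, with a log2 difference of 0.09 (SE 0.15, limma adjusted p = 0.643).

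Distance to the 3′ end of the containing gene was 3702 bp at the median for exon regions and 1630.5 bp for 3′ UTR regions. Of the 3′ UTR regions with a known end, 32.5% lay within 1 kb of it, compared with 8.69% of exon regions.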

How the data were processed

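ATAC-seq of 2 dopamine and 3 GABA libraries was used. Per the labels and the study's methods, the authors mapped reads to BDGP6 (Bowtie2), dropped duplicates (Picard), ran MACS2 on each library by itself, annotated regions with ChIPseeker and tested counts with DESeq2. Basecalls came from bcl2fastq 1.8.4. MACS2 settings and how the tested regions were made from peaks are not given in the sources used here, so equal settings for all lists cannot be assumed. Each deposited peak carries a fold enrichment (ratio over background) and a −log10 q-value. Each deposited region carries the pooled mean signal of the 5 libraries (counts divided by size factors). Their comparison columns (fold change, its error and p-values) were not used. The files hold no count per library, and read totals in the study's supplement were not used.

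Regions and peaks were joined in Python 3.11.15 (pandas 2.3.3, numpy 2.4.6, scipy 1.17.1) at an overlap of at least 1 bp. Differences in strength were fitted with limma 3.58.1 in R 4.3.3. The functions were tested on simulated data, and figures drawn with matplotlib 3.10.9. Positions count from 1. An exon region was assigned to the gene of its annotation. The RefSeq table of Release 6 gave spans and names.

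The regions, gene lists and markers were chosen with earlier results of these data known. Regions were named by rule, separately in each class. The rule took the 4 with the highest signal in all 5 lists, the 4 strongest in dopamine lists only and in GABA lists only, and the 3 largest limma differences in each direction with values that did not overlap. It also took the 4 genes with most regions, and list members called by all lists of 1 type only or by limma. Exceptions are stated. Alternatives covered overlap, peak threshold, list length, chromosome arms, strength measure, normalization, missing peaks, signal, intensity trend, a stricter p, the replicate block and leaving out each library.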

Additional observations from a re-analysis of the deposited data

How the results depend on the processing

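The mean differences in shares of called regions and in strength percentiles kept their direction under every alternative that was run. The alternative limited to chromosome arms could change nothing, since all regions already lay on them. In GABA list 3 alone, the exon share turned below that of the rest with equal numbers of peaks (-5.35 points), with −log10 q of at least 5 (-5.83) and with a summit inside the region (-0.27). Counts of regions moved more. With peaks covering at least 50% of the region, 1167 exon regions were GABA only, and 68 exon and 65 3′ UTR regions were called in all lists. With peaks of −log10 q of at least 5, dopamine-only regions numbered 79 in exons and 92 in 3′ UTRs, GABA-only regions 876 and 245, and regions in all lists 79 and 58. With equal numbers of peaks, GABA-only regions numbered 1090 in exons and 245 in 3′ UTRs. With 1 library left out, dopamine-only exon regions ranged from 178 to 398 and exon regions in all remaining lists from 321 to 621. Both were highest without dopamine library 2, but leaving out any library can only raise them. In limma, GABA-stronger regions fell to 54 in exons and 21 in 3′ UTRs without normalization. With missing peaks filled by the lowest value of the list, 275 and 1452 exon regions and 234 and 340 3′ UTR regions were stronger in dopamine and GABA lists. At an adjusted p under 0.01, 28 exon regions were dopamine-stronger and 78 GABA-stronger, and in 3′ UTRs the split turned to 28 against 26. An alternative chosen after seeing the data, which required a peak summit inside the region, moved no count by over 1.5 times. GC content was not run, since no genome sequence was used here.

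Replicate numbers are shared by the groups, but same-numbered libraries did not deviate together (r = -0.03 and 0.05), and there are only 2 pairs. With the replicate block, 47 exon regions were stronger in dopamine lists and 101 in GABA lists, and 40 and 42 3′ UTR regions. The median log2 difference of 3′ UTR regions was then 0.03. The weakest listed peak had a fold enrichment of 1.80 and 1.93 in dopamine lists and of 1.25, 1.28 and 1.28 in GABA lists, and its part in the shares was not tested beyond the −log10 q and equal-number alternatives above.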
